A study of Homo sapiens with 16 samples.

Results

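Long runs of neighbouring regions that lost H3K27ac under OGTi are described here. The 3496 lost regions and the 3623 gained regions on the nuclear chromosomes were placed in 1 order by position, and consecutive regions of the same direction were joined into a run while the centres of neighbours lay within 50 kb. The members are the lost regions in runs of 5 or more, which are called long runs below. They numbered 676 of 7119 listed regions, that is 19.3% of the lost regions, and formed 97 runs, whereas lost regions of any kind made up 49.1% of the listed regions. Since the members were selected on the positions and directions of the regions, the number, span and density of the runs are a description, and no test was applied to them.

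All libraries came from LX-2, a long-used line of human hepatic stellate cells (HSCs) that resembles myofibroblasts. Cells received no OSMI-1 (control) or 50 µM OSMI-1, an inhibitor of O-GlcNAc transferase (OGT) called OGTi below, for 24 h. H3K27ac ChIP-seq was performed on 4 biological replicates of each group, and the other 8 of the 16 libraries, inputs and column purified chromatin, were not used here. The deposited lists hold positions only, so neither replicate spread nor depth nor the size of the loss can be given for any region, and the defining markers of HSCs could not be checked. LX-2 is 1 cell line, and a single inhibitor at a single dose and time was compared.

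H3K27ac marks active promoters and enhancers, and it can extend over wide domains in which several enhancers lie close together, often around genes that characterise a cell type. OGT attaches the sugar O-GlcNAc to serine and threonine residues of nuclear and cytosolic proteins, among them many transcriptional regulators (TRs). In HSCs, myofibroblastic activation brings matrix production and contractility, and TEAD factors with their YAP and TAZ coactivators, AP-1, SRF and RUNX factors are among the TRs known to act at enhancers of such cells.

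The DNA under the runs is shown first for 6 of the runs with the most regions, so that the matches counted below can be seen in place. Each sequence is a 120-base window of hg38, read on the plus strand, chosen as the window of its run with the most kinds of match. The windows were thus selected for matches, and all 6 hold a TEAD match. Of all members, only 29.4% held a TEAD match in the central 1000 bp. The windows chosen likewise for the BTBD3 and LINC00840 runs held none, and no CArG box lies in the 6 shown. Capitals mark matches, on either strand, to TEAD (ACATTCCA, ACATTCCT, GCATTCCA or GCATTCCT), AP-1 (TGACTCA or TGAGTCA), RUNX (TGTGGT or TGCGGT) and the CArG box of SRF.
Run over KRT18P24, chr9:78987769-78987888, plus strand: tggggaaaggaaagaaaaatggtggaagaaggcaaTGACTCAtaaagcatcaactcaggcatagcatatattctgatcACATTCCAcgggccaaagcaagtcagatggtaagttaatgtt
Run in THSD4, chr15:71691933-71692052, plus strand: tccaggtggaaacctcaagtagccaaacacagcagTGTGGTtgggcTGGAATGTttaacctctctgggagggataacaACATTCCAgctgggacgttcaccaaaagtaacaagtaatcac
Run in TENM2, chr5:167815011-167815130, plus strand: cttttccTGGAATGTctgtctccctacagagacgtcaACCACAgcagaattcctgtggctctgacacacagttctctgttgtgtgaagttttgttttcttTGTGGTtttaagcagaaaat
Run in DIRC3, chr2:217278467-217278586, plus strand: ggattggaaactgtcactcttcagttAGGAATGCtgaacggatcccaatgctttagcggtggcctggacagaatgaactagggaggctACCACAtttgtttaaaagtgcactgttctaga
Run in RAD51B, chr14:68140373-68140492, plus strand: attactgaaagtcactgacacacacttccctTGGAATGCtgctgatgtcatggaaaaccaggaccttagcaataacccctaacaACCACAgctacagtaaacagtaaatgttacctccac
Run in PTPRQ, chr12:80510457-80510576, plus strand: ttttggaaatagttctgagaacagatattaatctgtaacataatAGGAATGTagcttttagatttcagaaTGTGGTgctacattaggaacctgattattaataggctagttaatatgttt
The window in THSD4 holds a pair of TEAD matches on opposite strands, and the window over KRT18P24 holds an AP-1 match upstream of a TEAD match.

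Few members lay at promoters. Of 30 named protein-coding genes with a member at a start, 18 had an entry in the RefSeq promoters used (GRCh38.p14, 250 bases upstream to 50 bases downstream of a start), 29 entries in all. Among these 29, 1 held a TEAD match, that of LMOD1, which encodes the smooth muscle actin nucleator leiomodin 1, beside 4.15% of 35116 RefSeq promoters of this length. It is shown with that of TNC, the gene of the matrix glycoprotein tenascin C, which also lay whole inside a member. Capitals again mark the matches, and none of the 4 motifs was found in these letters of the TNC promoter.
LMOD1 promoter, chr1:201946499-201946798, minus strand: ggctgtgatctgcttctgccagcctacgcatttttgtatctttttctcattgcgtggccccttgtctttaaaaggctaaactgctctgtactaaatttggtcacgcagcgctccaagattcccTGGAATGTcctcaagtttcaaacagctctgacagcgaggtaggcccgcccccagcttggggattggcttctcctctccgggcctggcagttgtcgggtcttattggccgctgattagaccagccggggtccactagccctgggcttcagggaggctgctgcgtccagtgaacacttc
TNC promoter, chr9:115118108-115118407, minus strand: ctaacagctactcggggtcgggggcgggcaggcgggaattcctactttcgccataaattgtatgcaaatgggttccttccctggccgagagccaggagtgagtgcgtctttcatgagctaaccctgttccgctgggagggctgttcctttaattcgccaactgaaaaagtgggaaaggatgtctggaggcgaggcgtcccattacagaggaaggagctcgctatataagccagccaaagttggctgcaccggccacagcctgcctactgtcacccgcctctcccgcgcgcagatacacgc

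The 97 lost runs held 5 to 17 regions each, with a median of 6, and spanned 12.5 to 194 kb, with a median of 62.0 kb. Together they spanned 6579 kb, of which the regions themselves covered 1291 kb. A median of 19.3% of a run was covered (range 8.47 to 85.2%), and the median density was 0.987 regions per 10 kb (range 0.463 to 4.44). Most runs held more sequence between the regions than in them: 64 runs were covered over less than 25% of their span and 11 over more than 50%. The longest stretch between members of a run had a median of 30.3 kb. The 69 gained runs of the same length class, with 476 regions, had a median span of 56.2 kb and a median density of 1.23 regions per 10 kb.

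**Figure D1:**
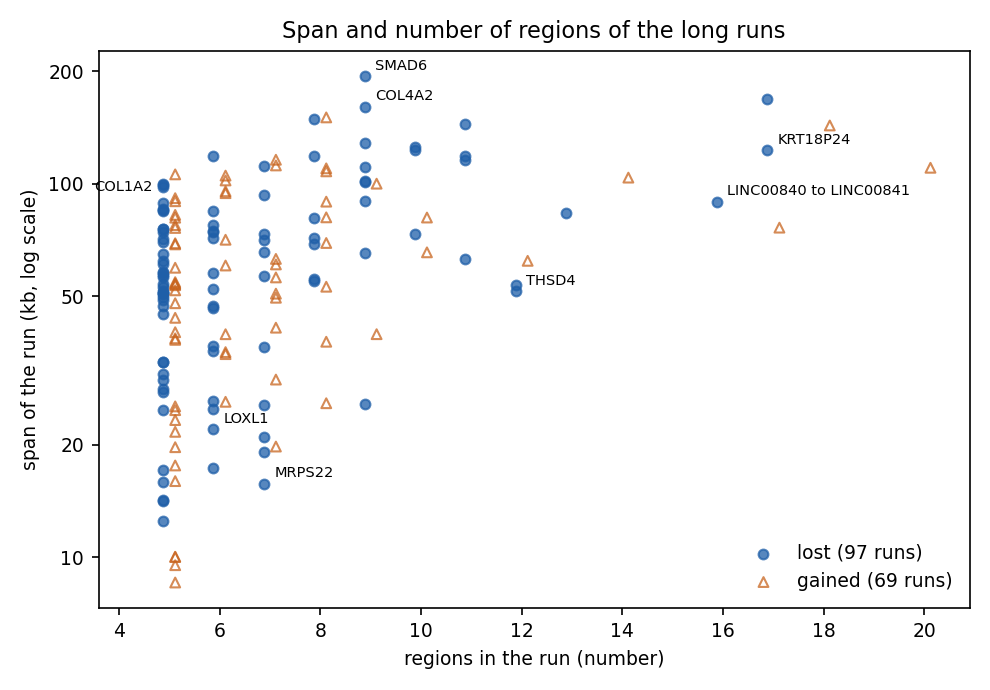
Number of regions (horizontal axis) against span in kb (vertical axis, log scale) of each long run, with filled circles for the 97 lost runs and open triangles for the 69 gained runs, which are shifted slightly sideways. Lost runs of 5 regions range from 12.5 to 99.9 kb, SMAD6 has the longest span at 194 kb, and the gained runs overlap the lost runs over most of the range.

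Of the lost runs, 41 held exactly 5 regions and spanned 12.5 to 99.9 kb (median 53.0 kb). Just outside the limit, 58 runs of 4 regions spanned 8.52 to 114 kb (median 37.7 kb). A further 1404 lost regions stood alone as runs of 1. The limit of 5 thus cut through a continuous distribution of run sizes.

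The number of regions in a run also depended on how the regions were made. Wide peaks were divided by the authors into bins of about 2000 bp, while many regions above that width were listed whole (upper quartile of member width 2327 bp). Exactly 2000 bp wide were 131 members (19.4%), against 6.49% of the other lost regions and 29.6% of the regions in long gained runs. Of 579 pairs of neighbours within the lost runs, 216 (37.3%) abutted with no base between them. Joined where they abutted, the 676 members formed 460 blocks, 2 to 11 in a run with a median of 4, and 51 of the 97 runs held fewer than 5 blocks. In such runs, the listed regions stood for fewer separate stretches than their number. A further 16 pairs of neighbours were separated by a whole multiple of 2000 bp, the place of 1 or more bins that were not listed as lost.

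Among the 13 runs of 10 or more regions, the one over the keratin pseudogene KRT18P24 held 17 regions in 123 kb (chr9:78932089-79055416). None of its members was centred in a gene or lay near a TSS, and the closest protein-coding start, that of the Groucho-type corepressor gene TLE4, was 516 kb away. Abutting pieces made up 2 blocks of 4 regions and 1 block of 3, and the other 6 members stood apart. A second run of 11 regions in 62.8 kb (chr9:78811703-78874549) ended 57.5 kb before it in the same gene desert, 515 kb from the start of PSAT1, an enzyme of serine synthesis. No gained region separated them, and jointly they held 28 lost regions over 244 kb, with only the 50 kb limit keeping them apart.

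Over the non-coding genes LINC00840, LINC00841 and LINC02659, 16 regions in 11 blocks spanned 89.6 kb (chr10:43842717-43932308), and 194 kb of sequence separated them from the start of the zinc finger gene ZNF32. No stretch without a lost region exceeded 13.01 kb in this run. Outside all genes lay 13 regions in 83.6 kb (chr9:26243088-26326646), 565 kb from TUSC1, and 12 regions in 53.7 kb (chr11:87421050-87474745), 383 kb from TMEM135. TEAD matches over the whole regions were found in 8 of 13 and 7 of 12 of their members. The runs near TLE4 and PSAT1 had them in 7 of 17 and 5 of 11. The shares over all members and over the other lost regions were 44.1 and 42.7%.

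Inside THSD4, which encodes an ADAMTS-like protein of the matrix that binds fibrillin, 12 regions covered 40.9% of 51.5 kb (chr15:71679303-71730809), all with their centre in the gene. BTBD3 was reached by 11 regions over 116 kb (chr20:11777225-11892788), and the last of them lay on a BTBD3 start while the other 10 lay upstream over non-coding genes or outside genes. A run of 11 separate regions over 144 kb (chr2:217224046-217368361) lay in the long non-coding gene DIRC3, and none of its members abutted. TENM2, a teneurin that links cells across contacts, held 11 regions over 119 kb (chr5:167698259-167816962). Of the 45 members of these 4 runs, 3 had their centre in an exon and 1, at BTBD3, was within 2500 bp of a protein-coding TSS.

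**Figure D2:**
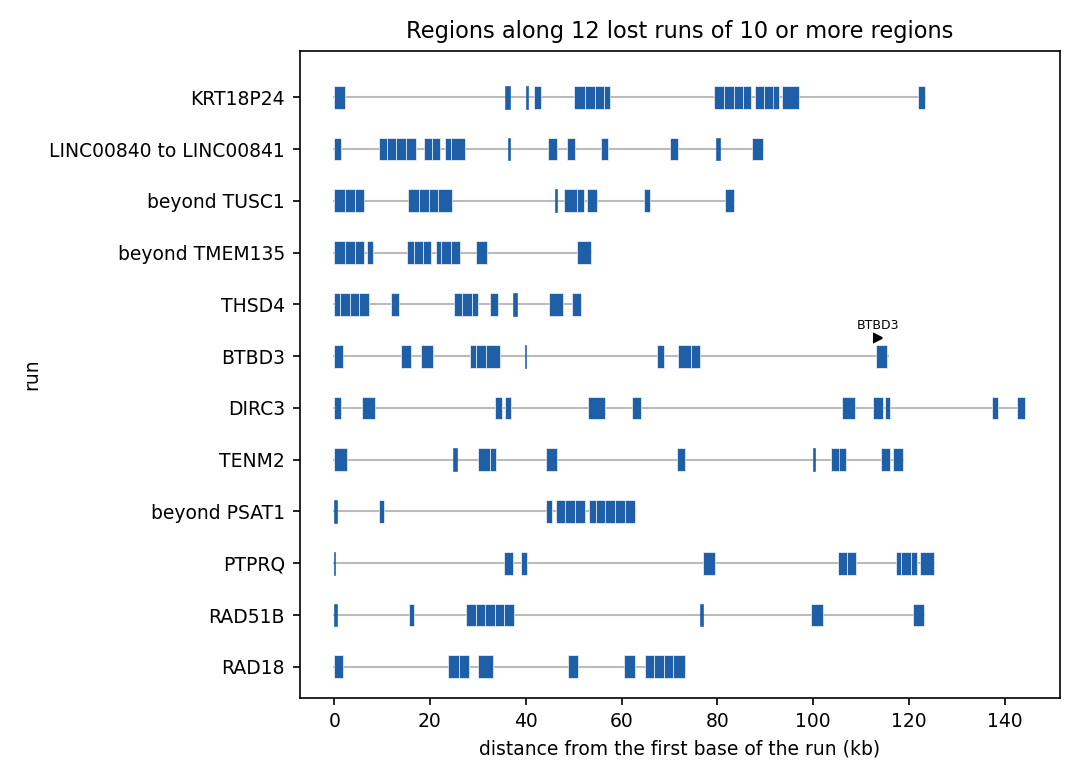
Position of each lost region (blue bars, to scale) along 12 runs of 10 or more regions, in kb from the first base of the run, with a triangle at a protein-coding TSS pointing in the direction of transcription. Bars that touch are abutting bins, "beyond" marks the nearest protein-coding gene of a run outside genes, and only the BTBD3 run contains a protein-coding TSS.

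Among the 3 runs of 10 regions, RAD51B, a recombination repair gene, carried its run over 123 kb (chr14:68109336-68232511), of which 5 regions were abutting pieces of 1 domain. PTPRQ, a receptor-type phosphatase, held regions spread over 125 kb (chr12:80473859-80599161). In RAD18, a ubiquitin ligase gene of DNA repair that overlaps CAV3, the muscle caveolin gene, they covered 30.2% of 73.3 kb (chr3:8821334-8894674). All 30 centres lay in protein-coding genes, 51.7 kb or more from the nearest protein-coding start.

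By density the order was different, and the first 5 places were taken by runs of 5 to 7 regions. In MRPS22, a mitochondrial ribosomal protein gene, 7 regions in 2 blocks covered 78.2% of 15.8 kb (chr3:139298624-139314382), at 4.44 regions per 10 kb. A run 291 kb from the start of the sulfatase gene ARSJ had 5 regions in 12.5 kb (chr4:114270647-114283175), the shortest span of all. SHB, a signalling adaptor gene, carried 7 regions in 19.1 kb (chr9:37936443-37955566). PPP1R12B, a regulatory subunit of myosin phosphatase, carried 5 regions in 14.2 kb (chr1:202575709-202589890), and ATRNL1 carried 5 in 14.2 kb (chr10:115935877-115950115), where 85.2% of the span was covered. None of these 5 runs had a member within 2500 bp of a protein-coding TSS.

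Close spacing was found in 13 lost runs, whose neighbouring members were nowhere more than 10 kb apart, which spanned 12.5 to 26.3 kb and which were covered over 48.0 to 85.2% of their span. Beside the 5 just named they were the runs in HS1BP3 (6 regions in 17.4 kb), in PTPRC, the leukocyte phosphatase CD45 (5 in 17.1 kb), in NIN, a centrosomal protein gene (5 in 15.9 kb), in SPEF2 (6 in 26.3 kb), in HSF2BP (6 in 25.03 kb), at LOXL1 (6 in 22.02 kb), over LINC02104 (9 in 25.7 kb) and over LINC02869 (7 in 21.0 kb). The LINC02104 run lay 35.2 kb from the start of DAB2, an endocytic adaptor, and the LINC02869 run 129 kb from the start of TGFB2, a TGF-beta ligand. DAB2 itself held a long gained run of 7 regions, whose nearest centre lay 75.85 kb from that of the LINC02104 run. The LOXL1 run alone among the 13 had a member at a protein-coding TSS. In 23 other runs, by contrast, a stretch of more than 40 kb between neighbours was bridged by the 50 kb rule.

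**Figure D3:**
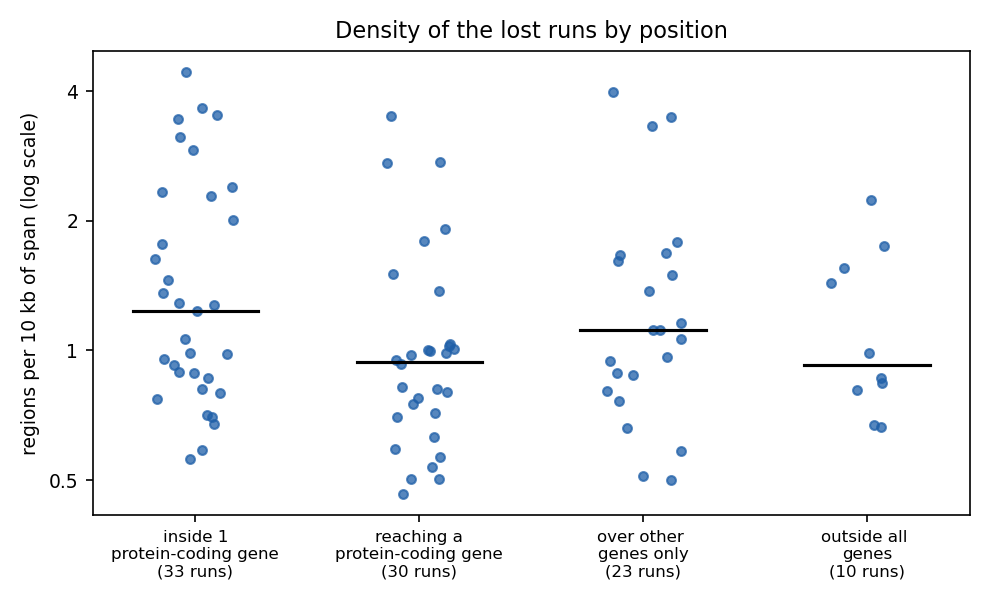
Density of each lost run, in regions per 10 kb of span (vertical axis, log scale), by its position relative to genes, with 1 point per run, scattered sideways at random, and a line at the median. Medians are 1.23, 0.940, 1.11 and 0.924 from left to right, and the 4 classes overlap over most of their range. The run in an unnamed protein-coding gene is not drawn.

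By place, 33 runs with 224 regions lay wholly inside 1 protein-coding gene, 30 with 207 regions reached a protein-coding gene, 23 with 163 regions lay over other genes only, and 10 with 76 regions lay outside all genes. The remaining run lay in an unnamed protein-coding gene. Median density was 1.23 regions per 10 kb for the first class and 0.924 for the last. Runs outside genes were poor in G and C, with a median of 40.4%, against 51.4% for runs reaching a protein-coding gene. In 38 runs every member had its centre in a protein-coding gene, and 16 of their 255 centres fell in an exon.

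Matrix genes of the myofibroblast were among those with a long run at or near their start. Upstream of COL1A2, which encodes the alpha 2 chain of type I collagen, 5 regions spanned 97.9 kb and ended 0.929 kb before the TSS. They were strung out, with a stretch of 46.2 kb after the first, and TEAD matches were found in 3 of them. COL4A2, a chain of the basement membrane collagen IV, carried 9 regions over 161 kb (chr13:110326466-110487365), all with their centre in the gene and none within 2500 bp of its start. The first of them lay 19.3 kb from the start of the neighbouring chain gene COL4A1, so that both starts lay within 100 kb of the run.

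TNC was covered at its TSS by the first of 5 regions over 88.6 kb, and the other 4 lay upstream of it in the non-coding gene DELEC1. FBLN2, the gene of the elastic fibre protein fibulin 2, had 3 members upstream, 1 that stopped 0.165 kb before its TSS and 1 in the gene, over 49.9 kb. At LOXL1, a lysyl oxidase that crosslinks elastin, 6 regions were packed over the TSS and the gene body, and 4 of them were within 2500 bp of a TSS. TRAM2, a gene for a translocon protein linked to collagen synthesis, held 6 regions over 46.6 kb. A run of 5 regions over 31.0 kb at the pseudogene CDK2AP1P1, 17.7 kb from the start of FSTL1, a secreted follistatin-like glycoprotein, is described here for that distance alone. These runs differed in layout: COL1A2 and TNC had members at the start and upstream of it, FBLN2 and LOXL1 on both sides, and COL4A2 and TRAM2 only inside the gene.

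**Figure D4:**
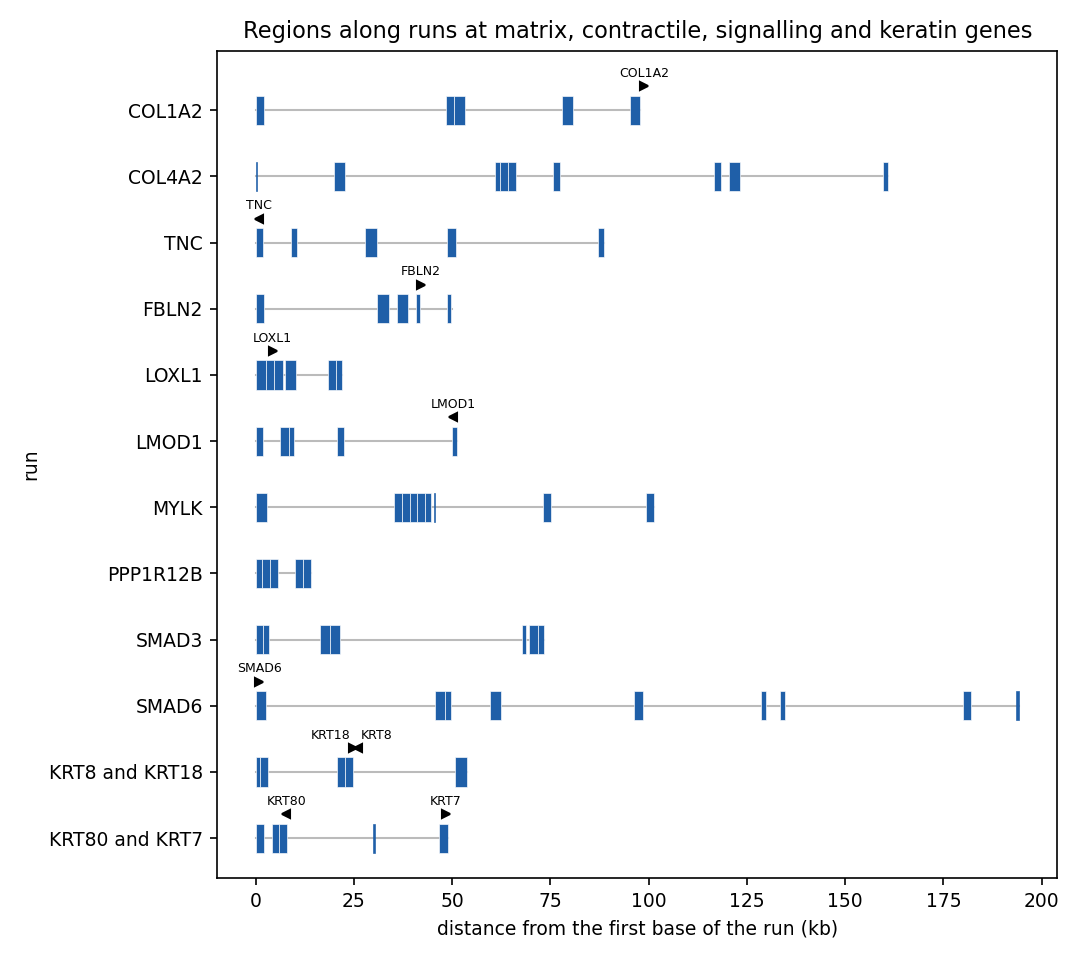
Position of each lost region (blue bars, to scale) along 12 runs at matrix, contractile, signalling and keratin genes, in kb from the first base of the run, with triangles at protein-coding TSSs in the direction of transcription. The COL1A2 run stops short of its TSS, the runs of TNC, LOXL1 and SMAD6 contain a member over the TSS, and the runs of COL4A2, MYLK, PPP1R12B and SMAD3 contain no protein-coding TSS.

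Genes of contraction and the actin cytoskeleton also carried long runs. MYLK, the kinase that phosphorylates myosin light chain, held 9 regions over 101 kb, 5 of them abutting pieces of 1 domain of 9.44 kb. PPP1R12B, described above, belongs to the phosphatase that opposes it. LMOD1 carried 5 regions over 51.2 kb from its 3′ end to its TSS, and 3 of them held a TEAD match. PDLIM1, which encodes a LIM protein of stress fibres, had 1 member of a run of 5 on its TSS. The smooth muscle calcium channel gene CACNA1C held 5 regions in 24.8 kb, 239 kb or more from any protein-coding start. MYL10, a myosin light chain gene, was reached by 5 regions over 84.5 kb, and MYO7A, OMP and CAPN5 by 5 over 60.9 kb. Regions at TXN2, a mitochondrial thioredoxin gene, formed a run of 7 in 36.6 kb within 100 kb of the start of MYH9, the non-muscle myosin IIA heavy chain.

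Keratin genes were reached by 2 runs on chromosome 12, 691 kb apart. One spanned 53.8 kb over KRT8 and KRT18, the paired keratins of simple epithelia, with 2 of its 5 members within 2500 bp of a protein-coding TSS. The other spanned 48.9 kb over KRT80 and KRT7, with 3 such members. At KRT80 and KRT7 members covered the GENCODE starts, whereas at KRT8 and KRT18 members lay within 2500 bp of these starts without covering them. A RefSeq start of KRT8 farther downstream lay inside another member. Between the 2 runs lay 2 gained regions.

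SMAD3, the TGF-beta effector, and SMAD6, an inhibitory SMAD, lay 212 kb from each other on chromosome 15 as measured between their runs. The run of SMAD6 had the longest span of all, 194 kb with 9 regions (chr15:66701245-66895517), and also the lowest density, 0.463 regions per 10 kb. Its first member covered the SMAD6 TSS, 3 lay in the gene and 5 beyond it. The 7 regions in SMAD3 spanned 73.4 kb of its introns, 43.5 kb or more from the start, and a gained region was centred 32.2 kb before the first of them.

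Other regulators had their runs in the gene body or beside the gene. RUNX2, a TR of osteogenic and mesenchymal cells, held 6 of the 7 regions of a run of 93.2 kb, and the last lay beyond the gene. ARNT2, a bHLH-PAS factor, held 8 in 54.8 kb, and HIVEP3, a zinc finger factor, held 6 in 47.1 kb. Of the HIVEP3 members, 3 lay within 2500 bp of an unnamed protein-coding TSS. ACKR3, an atypical chemokine receptor also called CXCR7, had 1 member in the gene and 8 outside any gene over 128 kb. IER5, an immediate early gene, was reached by 5 in 27.8 kb, 4 of them outside any gene. Adaptor and receptor genes were BCAR3 (5 in 64.8 kb), GNAO1, a G protein alpha subunit (5 in 85.2 kb), SEMA3E, a secreted semaphorin (5 in 28.2 kb), DOCK2, a Rac activator of leukocytes (7 in 70.9 kb), and TENM2, which carried a second run of 7 in 56.8 kb, 96.4 kb after the first. DOCK2 also held a long gained run of 6 regions.

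In NR6A1, an orphan nuclear receptor gene, 5 regions spanned 57.8 kb, and 3 of them lay within 2500 bp of the starts of MIR181A2, MIR181B2 or their host transcript MIR181A2HG. The mature miRNAs of this pair are printed from RefSeq (GRCh38.p14) because they share 1 seed (bases 2 to 8, in capitals).
hsa-miR-181a-5p, chr9:124692480-124692502, plus strand: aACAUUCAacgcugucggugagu
hsa-miR-181b-5p, chr9:124693725-124693747, plus strand: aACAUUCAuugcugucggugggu
The sequence of miR-181b-5p lies inside the third member (chr9:124693190-124695803), and that of miR-181a-5p just before it. No miRNA level was measured, so nothing is known here of their abundance.

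The other runs at protein-coding genes were mixed in function. ANKRD33B and ROPN1L were reached by 8 regions over 149 kb (chr5:10452921-10602407), one of the longest spans, with 1 member on the ANKRD33B TSS. VAC14, a scaffold of phosphoinositide synthesis, was reached by 9 over 65.4 kb beside the MTSS2 start. ME3, a mitochondrial malic enzyme gene, was reached by 9 over 90.1 kb. A run of 9 over 111 kb crossed PSG1, PSG6 and PSG7, pregnancy-specific glycoproteins of a multigene family, with 4 members at a protein-coding TSS, and whether reads were shared between the copies was not tested. CLEC16A held 8 over 118 kb. CSNK1D, SECTM1, CD7 and SLC16A3, the lactate transporter MCT4, were reached by 7 over 111 kb on chromosome 17, where no other long lost run was found. SH2D4A had 7 in 25.5 kb, 2 of them at its TSS.

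Smaller runs of 6 regions lay at PLEKHO2 (57.9 kb, 1 member on the TSS), CPA3, a mast cell carboxypeptidase gene (74.97 kb, 1 on the TSS), CACNA2D3 with LRTM1 (84.8 kb), GPR78 and TRMT44 (119 kb, 1 at the start of CPZ), KCNU1 (36.7 kb) and SLC7A14-AS1, in the unnamed protein-coding gene (52.2 kb). A further run of 6 crossed the gene-dense stretch of ABCB8, ASIC3, CDK5, SLC4A2, FASTK, TMUB1 and AGAP3 in 77.5 kb. Runs of 5 lay in MBNL2, a splicing factor gene (56.2 kb), CCDC85C with CCNK (51.0 kb), KCNJ6, a potassium channel gene (71.2 kb), at CPA5 and CPA1 (33.3 kb) and at SUSD1 (99.5 kb). No member of the runs in MBNL2, KCNU1, KCNJ6 or SUSD1 lay within 2500 bp of a protein-coding TSS.

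Runs over non-coding genes and pseudogenes only had a median span of 62.0 kb, between those of runs inside a protein-coding gene (54.8 kb) and reaching one (76.2 kb). On chromosome 2, LINC01819 was crossed by a run of 5 in 53.0 kb and, 62.3 kb further on, by a run of 8 in 69.2 kb that also crossed LINC02580, 119.5 kb or more from any protein-coding start. DIRC3 carried a second run of 5 in 62.0 kb, 284 kb after the first, with 1 lost and no gained region between. LINC02615 held 8 in 71.7 kb, 27.2 kb from the start of PGRMC2. On chromosome 6, 9 regions in 101 kb lay over a signal recognition particle RNA copy, 48.2 kb from TMEM170B. SLC44A3-AS1 held 6 in 35.7 kb, and SAMD12-AS1 held 5 in 99.9 kb, 107 kb from the start of TNFRSF11B, the decoy receptor osteoprotegerin. PTCSC2 held 5 in 44.9 kb, 42.6 kb from FOXE1, a thyroid TR.

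LINC02225 was crossed by 5 in 75.7 kb, LINC03041 by 5 in 85.5 kb, LINC02017 by 5 in 33.3 kb and COPB2-DT by 5 in 29.9 kb. On chromosome 21, the pseudogene NCSTNP1 was crossed by 7 in 65.7 kb, 524 kb from ADAMTS5, an aggrecanase gene, and LINC00316 by 5 in 51.7 kb. An unnamed non-coding gene on chromosome 2 held 5 in 56.9 kb, 597 kb from SLC4A3. The LINC00316 run was the only one of the 97 in which no member held a TEAD match.

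Outside all genes, beside the 3 runs given with the largest, 2 lay on chromosome 14 with 8 regions in 55.7 kb and 5 in 74.5 kb. They were 56.3 kb apart, and the nearest protein-coding start, that of SEL1L, was 1891 and 1760 kb away, the farthest for any of the 97 runs. Others were found 60.6 kb from PCED1B (6 in 71.4 kb), 315 kb from IRS1, the insulin receptor substrate (6 in 74.1 kb), 213 kb from DCBLD2 (5 in 58.0 kb), 55.2 kb from FST, the activin antagonist follistatin (5 in 75.5 kb), and 315 kb from KCNU1 (5 in 50.6 kb). In all, 32 of the 97 runs lay more than 100 kb from every protein-coding TSS.

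Distance from starts was a feature that the choice of runs had not used directly. Of the 676 members, 88 (13.02%) lay within 2500 bp of any TSS, against 652 of 2820 other lost regions (23.1%) and 139 of 476 regions in long gained runs (29.2%). Each gene counted here with 1 TSS. With the TSSs of all transcripts the share of members was 23.7%, and the other sets were not counted in that way. Gained regions outside long runs were at a TSS in 42.3%, so that the share was lower in long runs than outside them in both directions. For protein-coding TSSs the shares were 5.47% of members, 12.4% of other lost regions and 14.5% of regions in long gained runs. The lower share of the members than of the other lost regions was seen on 16 of the 18 chromosomes with at least 10 members. No member at a TSS was found in 48 runs, and 23 runs had a member at the TSS of a named protein-coding gene, of which 16 had exactly 1. The HIVEP3 run, not among the 23, had 3 members at an unnamed protein-coding TSS. First and last members were at a TSS in 17.5% of 194 cases and inner members in 11.2% of 482. These are shares of regions that neighbour each other, so no test was made of their differences.

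The share of members with their centre outside any gene, 32.1%, was close to that of the other lost regions (31.6%) and above that of the long gained runs (17.9%). Mean GC content was 45.7% for members (SD 7.64), 49.0% for other lost regions (SD 8.92) and 45.3% for the long gained runs (SD 9.12), so that the sets overlapped widely. It was higher in members than in other lost regions on 4 of 18 chromosomes. The mean observed over expected ratio of CpG was 0.196, 0.256 and 0.271 in the same order. Over single lost runs, GC content ranged from 33.8 to 62.8%.

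**Figure D5:**
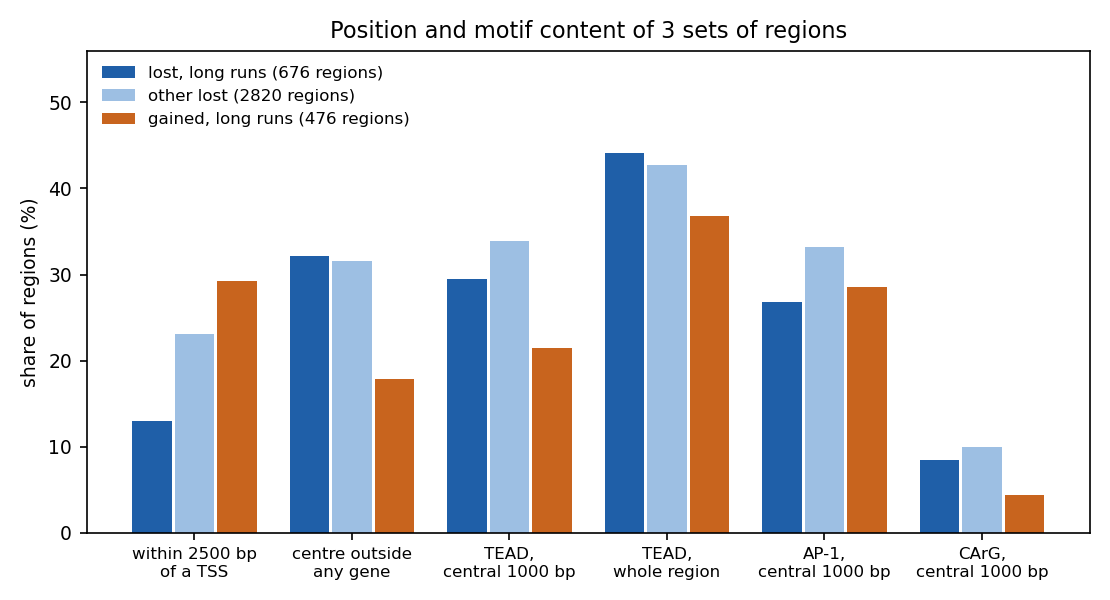
Share of regions (vertical axis, percent) with each feature for lost regions in long runs (dark blue), other lost regions (light blue) and gained regions in long runs (orange), as bars from 0 with no error, since neighbouring regions are not replicates. Members have the lowest share near a TSS, 13.02%, and for TEAD they lie below the other lost regions in the central 1000 bp and slightly above them over the whole region.

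TEAD matches were found in the central 1000 bp of 199 members (29.4%), of 33.9% of the other lost regions and of 21.4% of regions in long gained runs. The difference between members and other lost regions was -4.50 percentage points, with the members higher on 5 of 18 chromosomes. Over the whole region the shares were 44.1, 42.7 and 36.8%, so the sign turned with the window, and matches per 10 kb of sequence were 3.22, 3.24 and 2.57. With abutting regions joined into blocks, the difference in the central 1000 bp was -3.43 points. Away from TSSs the central shares were 29.4, 36.4 and 23.4%.

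Of the 97 runs, 96 held at least 1 TEAD match somewhere in a member, with a median of 4 matches and at most 10, and in none did every member hold one. In 33 runs 2 or fewer members held a match and in 10 runs 5 or more did. AP-1 matches were found in the central 1000 bp of 26.8% of members, 33.2% of other lost regions and 28.6% of regions in long gained runs. For the CArG box the shares were 8.43, 10.0 and 4.41%, and for RUNX 56.8, 58.3 and 54.8%. TEAD and AP-1 matches occurred together in 47 members (6.95%) and in 10.6% of the other lost regions. In the central 1000 bp the members thus lay below the other lost regions for these motifs, but over the whole region RUNX matches were found in 75.6% of members and 73.9% of other lost regions. Shares in the central 1000 bp were slightly higher in members for ETS (CCGGAAGT, 1.04 against 0.603%), for the composite of ATF4 and C/EBP (TGATGCAA, 2.66 against 2.09%) and for the E-box (CACGTG, 12.4 against 11.5%). The first rested on 7 members and 17 other lost regions, and the second on 18 and 59. In long gained runs the shares were 2.52, 5.04 and 9.45%. A match of letters says nothing of whether a TR is bound.

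Long runs were found on 21 chromosomes and none on chromosomes 18 and X. Chromosome 3 held 12 and chromosomes 1 and 9 held 9 each. Members made up 46.9% of the 49 lost regions of chromosome 21, 31.2% of those of chromosome 3, 30.3% of those of chromosome 9 and 4.86% of those of chromosome 17. Lost runs that neighboured each other within 1000 kb formed 13 pairs, of which 7 had no gained region between them and 4 were within 100 kb, at LINC01819, TENM2, KRT18P24 and on chromosome 14.

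At their ends, 17 runs met a gained region whose centre was within 50 kb of that of their last member, and no run did so on both sides. These included LOXL1 (13.8 kb), SUSD1 (16.0 kb), TRAM2 (17.8 kb), the run near FSTL1 (19.6 kb), MYLK (28.6 kb), KRT8 and KRT18 (30.1 kb), MRPS22 (30.6 kb), BCAR3 (31.6 kb), SMAD3 (32.2 kb) and GPR78 (32.8 kb). In 29 runs the next listed region on both sides was lost and in 20 it was gained on both sides.

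Gene lists gave the following counts, beside 159 of all 20007 protein-coding genes (0.795%) with a start within 100 kb of a long lost run. Matrix genes numbered 4 of 27 (COL1A2, COL4A1, COL4A2 and TNC) and contractile and cytoskeletal genes 3 of 23, MYLK and MYH9 among them. Mesenchymal TR genes numbered 1 of 29 (SMAD3), with the body of RUNX2 also crossed. The direct YAP and TEAD target genes numbered 0 of 20, and 9 of the 20 had a lost region of any kind within 100 kb. Growth factor genes (0 of 23) and integrin and adhesion genes (0 of 21) likewise had none. At the share over all protein-coding genes, 0 is the most likely count for lists this short, so these counts do not set the lists apart. Genes with a lost region of any kind within 100 kb numbered 4082, and 3.90% of these were near a long run. Such a region was also found for 15 of 27 matrix, 18 of 23 contractile and cytoskeletal and 9 of 29 mesenchymal TR genes. Of these, 26.7, 16.7 and 11.1% were near a long run.

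For lists taken from the study the counts were 8 of 162 fibrogenic MF-HSC genes (ASIC3, CAV3, COL1A2, COL4A1, FBLN2, FSTL1, LMOD1 and TNC) and 6 of 71 genes of the liver fibrosis matrisome (COL18A1, COL1A2, COL4A1, COL4A2, FBLN2 and TNC). They were 3 of 61 liver fibrosis genes (COL4A1, COL4A2 and DAB2) and 4 of 147 genes of heart, kidney and lung fibrosis (COL1A2, CPA3, FBLN2 and LOXL1). Of 127 MF cell identity genes, 9 were near a long run (AMIGO2, COL1A2, COL4A1, COL4A2, DAB2, LOXL1, MYH9, TNC and TRAM2). A lost region of any kind lay within 100 kb of 65, 28, 18, 46 and 57 genes of these lists, in the same order. All genes within reach of a run share its regions, and COL4A1 and COL4A2 are counted for the same 9 regions. DAB2 also held a long gained run.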

How the data were processed

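The deposited values used here are 2 lists of genomic positions in hg38, with chromosome, start and end only, which the authors derived from 4 OGTi and 4 control H3K27ac libraries. Per the methods, reads with duplicates and blacklisted positions removed were called as peaks with MACS2 2.1.1.20160309 against input, divided into bins of about 2000 bp and tested with MAnorm2. The names of the lists give an adjusted p threshold of 0.15, whereas the methods text gives a stricter one, and the lists were used as named. Neither signal nor fold changes, p-values or values per replicate are in them, the depth is unknown, and unchanged regions were not analysed here.

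Regions on the nuclear chromosomes were kept, which left out 11 lost regions (10 of them mitochondrial). Starts were converted to count from 1. A run was ended by a region of the other direction or by more than 50 kb between centres. Genes and their 5′ ends (TSSs) came from GENCODE release 44. A region was at a TSS when any base lay within 2500 bp. Motifs were searched on both strands of hg38. Sequences of promoters and miRNAs were taken from RefSeq. Python 3.11.15, pysam 0.24.0 and samtools 1.23.1 were used, and run formation and motif search were tested on simulated data. The members, gene lists and features were chosen with earlier results of these data known. Every long lost run was to be named, with coordinates for the runs with the most regions, the 5 densest and the 5 longest, but some items are not reported here.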

Additional observations from a re-analysis of the deposited data

How the results depend on the processing

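No paired analysis was possible because positions alone were listed, without values per replicate, and for the same reason no replicate could be left out and no stricter threshold tried. Of 77 recomputed values, 43 stayed within 1.5 times (counts) or within the counting interval of the value given above, 33 moved further and 1 changed sign. The distance between edges and the lost list alone moved none of the 9 summary values.

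Linking centres within 25 kb gave 59 runs of 397 regions, a median span of 29.9 kb, 2.01 regions per 10 kb, a TEAD share of 25.7%, a TEAD difference of -8.32 points and 44.3% GC. Linking within 100 kb gave a span of 109 kb, 0.667 regions per 10 kb, a TSS-proximal share of 18.1% and 46.8% GC. A minimum of 4 regions gave 155 runs, 51.7 kb, 17.8% TSS-proximal and 46.5% GC. A minimum of 8 gave 29 runs of 298 regions, 101 kb, 9.73% TSS-proximal, 37.2% intergenic and 44.3% GC. With abutting regions joined first, 46 runs of 284 blocks remained, with 84.0 kb, 0.699 blocks per 10 kb and 46.3% GC.

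The TSS-proximal share was 8.73% within 1000 bp, 18.3% within 5000 bp, 5.47% for protein-coding TSSs and 23.7% for the TSSs of all transcripts. Outside protein-coding genes lay 50.4% of centres. TEAD matches were found in 44.1% of members over the whole region, where the difference from the other lost regions turned to 1.39 points, and the core CATTCC in 56.8%. The share at a TSS, the density and the sign of the TEAD difference therefore rest on these settings.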
